A study of Homo sapiens with 6 samples.

Results

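Transcript levels of 43 genes that build, modify and break down sphingolipids were compared in Jurkat cells between a control short hairpin RNA (shCtrl) and a hairpin against SATB1 (shSATB1). The genes were chosen by symbol (ceramide synthesis, hydroxylation by FA2H, and the enzymes of sphingomyelin, glycosphingolipids and sphingosine phosphate), and 43 of 43 symbols were found among the 58735 genes counted. Jurkat is an established human T cell leukaemia line. The cells of both groups were of this line and grown in the same medium, and both carried a hairpin, so that hairpin expression is common to both. The hairpins differ in target and so in sequence. Effects of a hairpin on other transcripts cannot be told apart here from the lowering of SATB1. SATB1 encodes a chromatin-organising protein of T cells, and the labels state a knockdown, not a knockout. How the hairpins were delivered, how many were used against SATB1, their sequences and the time after delivery are details that the sources used here do not give. Each group held 3 RNA-seq libraries (replicates 1 to 3). No label says whether these came from separate cultures, and the p-values therefore reflect the spread among libraries, which may be technical.

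Sphingolipids share a sphingoid base made in the endoplasmic reticulum from serine and palmitoyl-CoA. Ceramide synthases add a fatty acid to that base, and a desaturase turns the product into ceramide, which is then given a head group to become sphingomyelin or a glycosphingolipid. Breakdown runs largely in lysosomes, returns ceramide and sphingosine, and feeds sphingosine phosphate, the signal that lymphocytes follow out of lymphoid organs. FA2H adds a hydroxyl group to the fatty acid of these lipids and is best known from myelin, where hydroxylated galactosylceramide is abundant. In T cells, sphingomyelin and glycosphingolipids are known as components of the ordered membrane regions around the antigen receptor.

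FA2H, SMPD1 and GLA had the largest changes among the members past the threshold, and the DNA just upstream of each is shown to place these genes and the common promoter letters near them. Sequences are RefSeq promoter windows (GRCh38.p14, written 5′ to 3′ on the strand of the gene) of 250 bases before the RefSeq start, ended where the GENCODE 29 gene begins. Capitals mark GGGCGG, the GC box, and CCAAT, each on either strand, so that they also read CCGCCC and ATTGG.
FA2H, chr16:74774832-74775070, minus strand: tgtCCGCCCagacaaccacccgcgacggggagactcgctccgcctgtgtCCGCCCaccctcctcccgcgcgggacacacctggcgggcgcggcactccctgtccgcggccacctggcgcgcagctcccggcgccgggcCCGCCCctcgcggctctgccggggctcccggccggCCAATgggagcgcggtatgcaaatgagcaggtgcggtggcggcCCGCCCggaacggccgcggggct
SMPD1, chr11:6390224-6390430, plus strand: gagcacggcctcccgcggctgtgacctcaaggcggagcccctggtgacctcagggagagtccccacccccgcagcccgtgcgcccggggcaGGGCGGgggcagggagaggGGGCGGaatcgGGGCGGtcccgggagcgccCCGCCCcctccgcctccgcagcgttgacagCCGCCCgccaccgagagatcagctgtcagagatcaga
GLA, chrX:101408013-101408175, minus strand: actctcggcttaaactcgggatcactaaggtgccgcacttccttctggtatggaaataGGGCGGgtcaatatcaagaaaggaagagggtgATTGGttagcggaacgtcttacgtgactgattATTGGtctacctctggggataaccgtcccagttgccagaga

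The stretch before FA2H held 4 GC boxes and 1 CCAAT, that before SMPD1 held 5 GC boxes and 0 CCAAT, and that before GLA held 1 GC box and 2 CCAAT. Over the full 250 bases, FA2H and SMPD1 were GC-rich (77.6% and 75.2% G or C), whereas GLA stood at 46.8%. A RefSeq window was found for 32 of the 43 members. Of these, 28 (87.5%) held a GC box, against 42.6% of 35116 windows of the same length, which include many noncoding genes. The windows of the members were also richer in G or C, with a median of 71.6% against 58% over all windows. Whether the GC box share goes beyond that base composition was not tested. CCAAT was present in 9 of 32 members and in 32.0% of all windows. The E-box CACGTG was present in 2 of 32 members, UGT8 and NEU1, and in 6.34% of all windows, and TATAAA in 0 of 32 members and in 10.7% of all windows. None of the 4 motifs overlapped another in the sequences shown. These matches describe letters in the windows, not bound sites.

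Reads in annotated genes numbered between 26626539 and 28913623 per library. Levels are given as CPM (the usual abbreviation for read counts relative to library size), scaled to library sizes adjusted by edgeR's TMM method, and 3 reads, the limit that a count of 0 allows, correspond to 0.104 to 0.113 CPM before that adjustment (counting error only). SATB1 stood at 265.6 ± 11.6 CPM in shCtrl and at 102.0 ± 1.94 CPM in shSATB1 (SD, n = 3 per group, as for all levels below), a log2 fold change of -1.38 (SE 0.0611, adjusted p = 1.11e-08 by edgeR's quasi-likelihood test with Benjamini-Hochberg adjustment). Of 12 T cell markers, 12 passed the filter on low counts, with summed levels of 4440 to 4846 CPM in shCtrl and 4424 to 4618 CPM in shSATB1. Of these 12, 2 rose (PTPRC 1.6-fold and TRAC 1.38-fold) and 6 fell, among them TRBC1, CD2, CD5 and CD3D, by 1.24-fold to 1.31-fold. Markers of myeloid cells (5 genes, at most 2.26 CPM in sum) and of epithelial or packaging cells (6 genes, at most 0.80 CPM, with EPCAM and KRT19 at 0 reads) were near 0. Of the 5 B cell and 4 fibroblast markers, CD79A and COL1A1 held most of the reads, and of the 4 oligodendrocyte markers, which matter here because that cell type is known for FA2H, MBP held most, while MOG had at most 1 read in any library. Reads that fell in no annotated exon made up 9.10% ± 1.23 of a library in shCtrl and 11.4% ± 0.436 in shSATB1. Their share was lowest in shCtrl 2 (7.77%) and higher in each shSATB1 library (10.9% to 11.7%) than in each shCtrl library (7.77% to 10.2%), so that the group and this share cannot be told apart by these libraries alone.

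Most of the pathway was expressed. Levels per length (CPM per kilobase of annotated exon, mean of both groups) ran from 34.4 for CERK, the ceramide kinase gene, to 0.00518 for UGT8. CERK was followed by ORMDL3 (25.6), SMPD4 (22.4), DEGS1 (21.3) and CERS2 (19.7). FA2H stood at 1.33 CPM per kilobase in shCtrl and 0.373 in shSATB1, and its mean over both groups ranked 37 among 43. The lowest levels were those of the genes of galactosylceramide. UGT8, which makes galactosylceramide, had 0, 2 and 1 reads in shCtrl 1, 2 and 3 and 1, 0 and 0 reads in shSATB1 1, 2 and 3. GALC, which removes the galactose again, had 0, 3 and 1 reads in shCtrl and 4, 4 and 2 reads in shSATB1. FA2H transcript was thus present where the gene of galactosylceramide synthesis was at or below the level of 3 reads. UGT8 and GALC did not pass the filter and were not tested, and no fold is given for them. The summed exon length of HEXA (12611 bases), ASAH1 (15378 bases) and ST3GAL5 (16318 bases) covers long alternative exons, and their level per length may be understated.

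**Figure D1:**
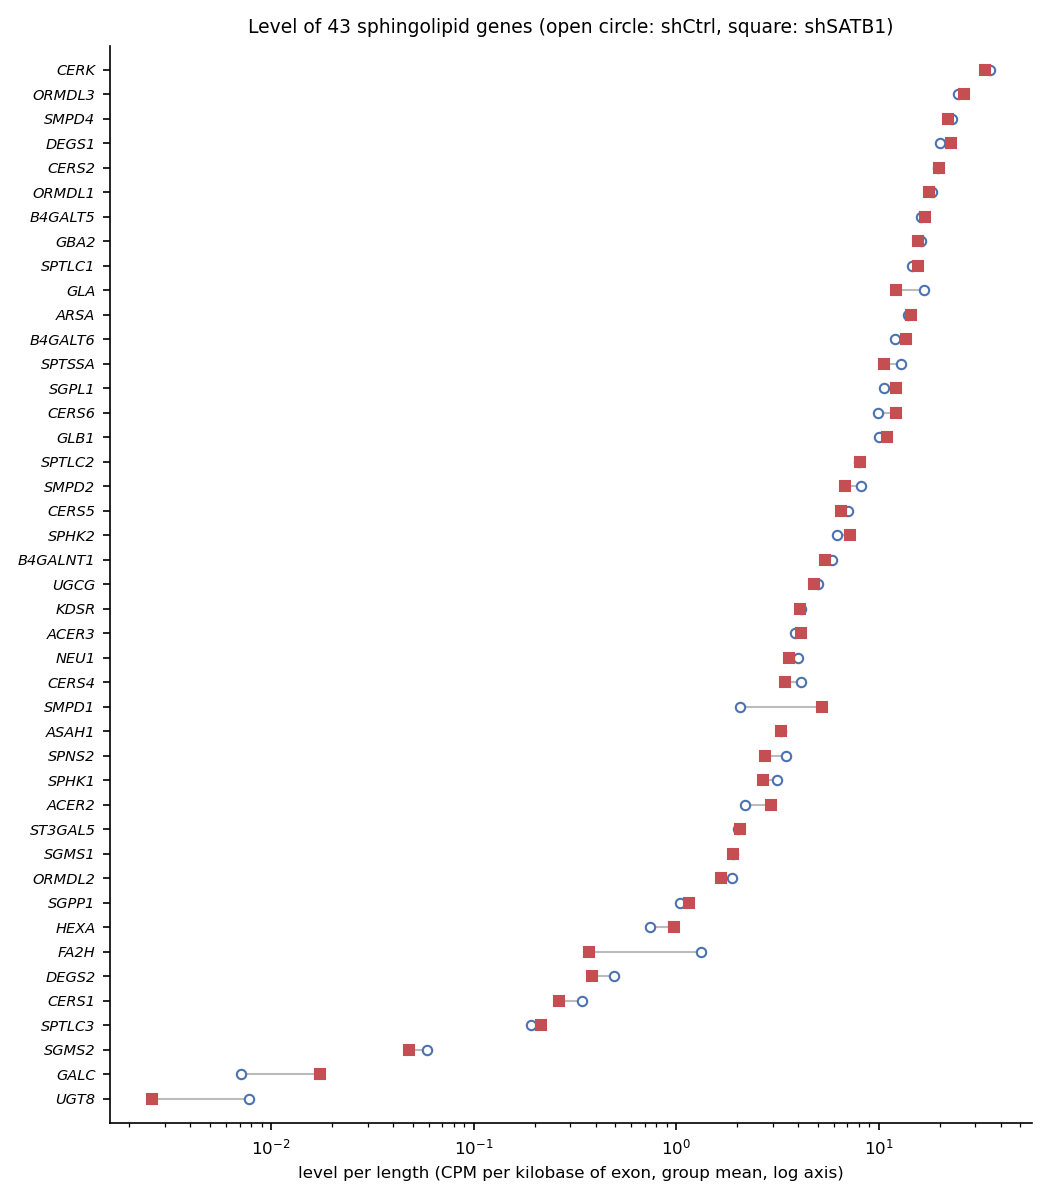
Level per length of the 43 genes on a log axis, as group means in CPM per kilobase of exon, with open circles for shCtrl and squares for shSATB1. CERK stands at the top and GALC and UGT8 at the bottom, and FA2H and SMPD1 are the pairs of points that lie farthest apart among the genes that passed the filter.

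The comparison asks which of these transcripts differ between shSATB1, where SATB1 is lowered, and shCtrl. At an adjusted p under 0.05 (edgeR), 6 of the 41 members tested rose in shSATB1 and 4 fell, which is 24.4% of them, and 14 had an unadjusted p under 0.05. Over the 17520 genes tested, 30.9% passed the same threshold, 14.3% higher and 16.6% lower. The difference between these shares was not tested. Its order turned without a filter on low counts, where 20.9% of the 43 members and 16.1% of 34788 genes passed. That setting takes in many genes with few reads, and 5594 genes passed there against 5410 with the filter. In every other setting the share of the members was the lower one. The median log2 fold change of the members was 0.00 (-0.00157) against 0.00913 over all genes tested, with 20 members above 0 and 21 below. Changes were small: 29 of 41 members (70.7%) lay within 1.2-fold, against 56.3% of all genes tested. FA2H and SMPD1 were the 2 members that passed and also changed at least 1.5-fold, as did 7.07% of all genes tested. The libraries of the groups did not overlap for 7 members that were higher in shSATB1 and 5 that were lower, while 21.7% and 23.4% of all genes tested showed such a separation. Spread between libraries was wider in shCtrl, with a median coefficient of variation of 7.92% over the tested members against 4.72% in shSATB1. The same held over all genes tested, at 9.80% and 6.79%.

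**Figure D2:**
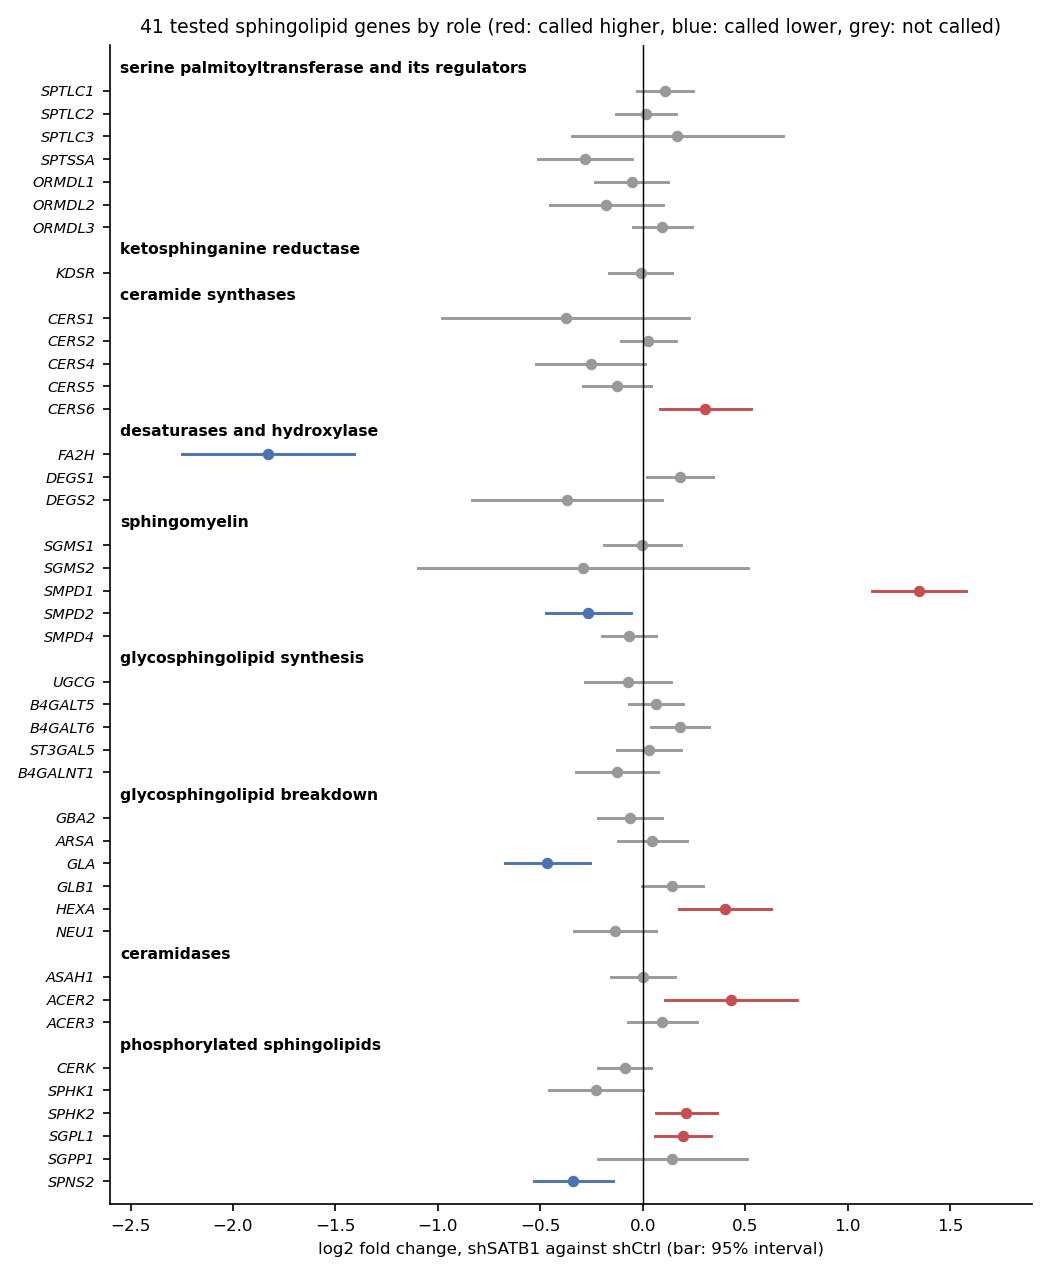
Log2 fold change of shSATB1 against shCtrl for the 41 tested genes, grouped by role, with 95% intervals (red for called higher, blue for called lower, grey for not called). FA2H at -1.83 and SMPD1 at 1.35 lie apart from the other 39 genes, which fall between -0.47 and 0.43.

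At the entry into the pathway, 0 of 7 genes passed by edgeR, limma-voom or DESeq2, and 1 (SPTSSA) had an unadjusted edgeR p under 0.05. Serine palmitoyltransferase, the rate-limiting enzyme, is formed by SPTLC1 with SPTLC2 or SPTLC3 and a small activating subunit such as SPTSSA, and is restrained by the ORMDL proteins. SPTLC1 stood at 94.6 ± 4.84 CPM in shCtrl and 101.9 ± 4.09 CPM in shSATB1, and SPTLC2 at 73.1 ± 5.79 and 74.0 ± 1.76 CPM. The 95% interval of the log2 fold change of SPTLC2 ran from -0.13 to 0.16, which leaves out larger changes in either direction. SPTLC3 was low, at 1.63 ± 0.514 and 1.84 ± 0.149 CPM, from 35 to 62 reads per library, and its interval was wide (-0.35 to 0.68). SPTLC2 made up 97.7% ± 0.523 of the reads per kilobase of SPTLC2 and SPTLC3 in shCtrl and 97.4% ± 0.266 in shSATB1.

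SPTSSA came nearest to the threshold in this step, at 35.8 ± 6.34 and 29.5 ± 1.70 CPM (log2 fold change -0.28, SE 0.107, edgeR adjusted p = 0.0616). It passed without a filter (adjusted p = 0.00543), with a replicate block (0.0270) and without shCtrl replicate 1 (0.000393), out of a range of 0.000393 to 0.609 over 16 other settings. ORMDL3 stood at 92.8 ± 6.53 and 99.2 ± 4.5 CPM and ORMDL1 at 72.5 ± 8.54 and 69.9 ± 4.14 CPM. ORMDL2 was far lower, at 5.31 ± 0.296 and 4.70 ± 0.222 CPM, and its libraries did not overlap between the groups, but the change did not pass (adjusted p = 0.317). An exon stretch of 920 bases of ORMDL2, 32.7% of its exon length, is shared with DNAJC14 on the opposite strand, and the strand setting of the counting is not given. ORMDL2 gave 4.21% ± 0.109 of the reads per kilobase of the 3 ORMDL genes in shCtrl and 3.66% ± 0.233 in shSATB1. KDSR, the reductase of the next step, stood at 38.5 ± 0.814 and 38.2 ± 2.38 CPM (adjusted p = 0.927).

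Among the ceramide synthases, which differ in the length of the fatty acid they attach, CERS6 rose and 4 others did not pass. CERS6, which prefers long-chain palmitoyl-CoA, stood at 83.6, 59.0 and 72.7 CPM in shCtrl 1, 2 and 3 and at 93.2, 80.9 and 92.0 CPM in shSATB1 1, 2 and 3. The groups overlapped, since shCtrl 1 lay above shSATB1 2. The mean went from 71.7 ± 12.3 to 88.7 ± 6.79 CPM, a log2 fold change of 0.31 (SE 0.103, edgeR adjusted p = 0.0363). Its lowest library, shCtrl 2, was also the one with the lowest share of reads in no annotated exon, and its highest, shSATB1 1, the one with the highest. With that share as a covariate the estimate turned to -0.18 (adjusted p = 0.225; 6.92e-05 to 0.503 over 16 other settings). Leaving out shCtrl replicate 3 (adjusted p = 0.0863), shSATB1 replicate 1 (0.126) or shSATB1 replicate 3 (0.130) also lost the call. CERS6 shares 41.4% of its exon length with the opposite-strand transcript CERS6-AS1.

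CERS2, the synthase of very-long-chain ceramides, gave the largest share of ceramide synthase reads and stood at 90.7 ± 3.88 and 92.4 ± 3.96 CPM, with an interval of the log2 fold change from -0.11 to 0.16. On the opposite strand, SETDB1 covers 20.4% and AL590133.2 16.8% of the exon length of CERS2. Reads that fit several genes were set apart as ambiguous. If the counting ignored strand, which is not stated, the level and share of CERS2 per kilobase may thus be understated. CERS5 stood at 47.8 ± 4.5 and 43.8 ± 1.85 CPM and CERS4 at 16.8 ± 2.04 and 14.1 ± 2.38 CPM. CERS1 was low, at 1.29 ± 0.277 and 0.992 ± 0.222 CPM, and 67.1% of its exon length is shared with GDF1 on the same strand. Reads in that stretch fit both genes and would be set apart as ambiguous, so the CERS1 level and share may be understated. Per kilobase, CERS6 made up 24.1% ± 3.68 of the reads of the 5 synthase genes in shCtrl and 28.9% ± 2.49 in shSATB1 (two-sided exact permutation test, p = 0.2). CERS4 went from 10.1% ± 1.30 to 8.17% ± 1.25 of them, with no overlap between the groups (exact permutation p = 0.1, which is the lowest p that this design allows). CERS2 held 47.6% ± 0.926 and 47.0% ± 1.09.

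FA2H had the largest change of the 41 tested members. Its level was 5.13, 3.89 and 4.06 CPM in shCtrl 1, 2 and 3 and 1.02, 1.38 and 1.28 CPM in shSATB1 1, 2 and 3, from 143, 107 and 110 reads and from 28, 39 and 37 reads. The lowest shCtrl library lay well above the highest shSATB1 library. The mean fell from 4.36 ± 0.672 to 1.22 ± 0.184 CPM, a log2 fold change of -1.83 (SE 0.196, edgeR adjusted p = 2.19e-05), so that 28.2% of the shCtrl level remained (95% interval 21.0% to 37.7%). The call was kept under each of the 16 other settings, where the log2 fold change lay between -2.11 with the covariate and -1.70 without shCtrl replicate 1. FA2H (ENSG00000103089, chromosome 16, 74712955 to 74774831, minus strand, hg38) shares no exon with another annotated gene.

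The desaturases that place the double bond of ceramide did not follow FA2H. DEGS1, which makes the usual ceramide, stood at 50.3 ± 4.54 and 57.1 ± 2.09 CPM (log2 fold change 0.18, SE 0.0742, adjusted p = 0.0782). It passed, higher, under 5 of 16 other settings, among them the gene length correction (adjusted p = 0.00257) and the covariate (0.00455). The range over the 16 settings was 0.00257 to 1.00. DEGS2, which also makes hydroxylated phytoceramide, was low (2.21 ± 0.506 and 1.71 ± 0.106 CPM, adjusted p = 0.212), and made up 2.44% ± 0.641 and 1.66% ± 0.0795 of desaturase reads per kilobase. FA2H and DEGS2 were therefore both lower in mean level in shSATB1, and of the pair FA2H passed the test.

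**Figure D3:**
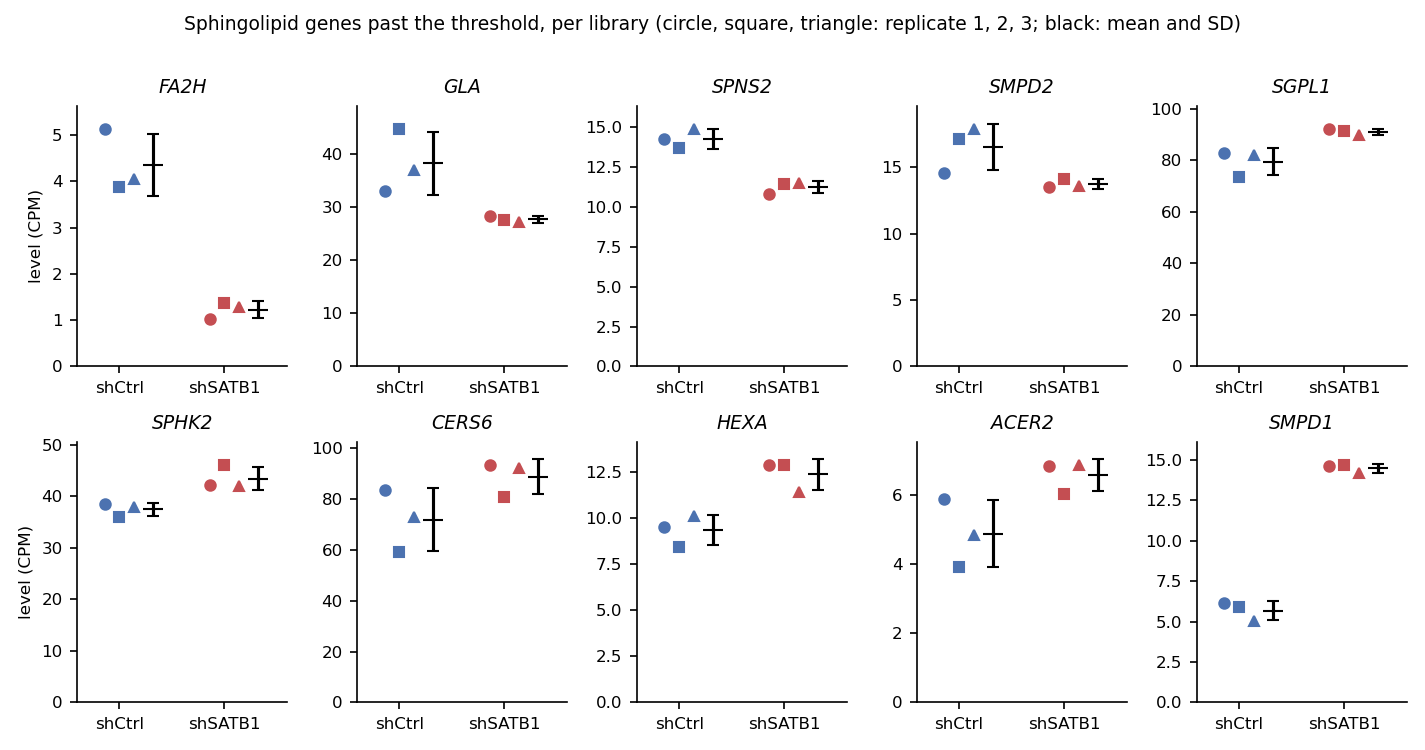
CPM of the 10 genes that passed the threshold, ordered from the largest fall to the largest rise, with circles, squares and triangles for replicates 1, 2 and 3 and black bars for the mean and SD (each axis starts at 0). FA2H and SMPD1 show a wide gap between the groups, while for CERS6 the groups overlap and for ACER2 and SMPD2 the gap is small beside the spread of the shCtrl libraries.

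In sphingomyelin metabolism, SMPD1 rose strongly, SMPD2 fell slightly and 3 genes did not pass. SMPD1 encodes acid sphingomyelinase, the lysosomal enzyme that cleaves sphingomyelin to ceramide and is deficient in Niemann-Pick disease types A and B. Its level was 6.14, 5.89 and 5.02 CPM in shCtrl 1, 2 and 3 and 14.6, 14.7 and 14.2 CPM in shSATB1 1, 2 and 3, from 136 to 171 and from 402 to 416 reads. Each shSATB1 library lay well above each shCtrl library, and the spread within shSATB1 was small. The mean rose from 5.68 ± 0.585 to 14.5 ± 0.281 CPM, a 2.55-fold change (95% interval 218% to 298% of control, log2 fold change 1.35, SE 0.106, edgeR adjusted p = 1.75e-06). The call was kept under each of the 16 other settings, with log2 fold changes between 1.27 without shCtrl replicate 3 and 1.43 with the length correction. SMPD1 (ENSG00000166311, chromosome 11, 6390431 to 6394998, plus strand, hg38) ends 0.126 kb before the end of APBB1, which lies on the minus strand and also rose. Whether reads running past one gene were counted in the other was not tested.

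SMPD2, a neutral sphingomyelinase gene, stood at 14.6, 17.1 and 17.9 CPM in shCtrl 1, 2 and 3 and at 13.5, 14.1 and 13.6 CPM in shSATB1 1, 2 and 3. The groups did not overlap, but shCtrl 1 came close to shSATB1 2. The log2 fold change was -0.26 (SE 0.0957, edgeR adjusted p = 0.0494), and the call was lost under 13 of 16 other settings (adjusted p 0.00486 to 0.805), with the direction kept. SMPD2 shares 20.3% of its exon length with PPIL6 on the opposite strand. SMPD4, a further neutral sphingomyelinase gene with the third highest level per length, stood at 168.9 ± 5.84 and 161.4 ± 6.96 CPM (adjusted p = 0.452). SMPD4 had the highest level of the 3, and SMPD1 made up 6.24% ± 0.717 of the reads per kilobase of the 3 sphingomyelinase genes in shCtrl and 15.5% ± 0.363 in shSATB1. The share of SMPD4 went from 69.0% ± 2.09 to 64.4% ± 0.529 and that of SMPD2 from 24.7% ± 2.49 to 20.1% ± 0.294, each without overlap between the groups (exact permutation p = 0.1 for each). The 3 shares add up to the whole in each library, so their changes are not separate results.

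The sphingomyelin synthases, which carry out the reverse step, did not pass the test. SGMS1 stood at 12.2 ± 0.138 and 12.2 ± 0.219 CPM, with an interval of the log2 fold change from -0.19 to 0.19. SGMS2 was near the limit of detection, at 0.449 ± 0.0217 and 0.366 ± 0.0625 CPM from 9 to 13 reads per library, and its interval (-1.10 to 0.51) was wide. SGMS1 made up 97.0% ± 0.160 and 97.5% ± 0.450 of the synthase reads per kilobase.

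**Figure D4:**
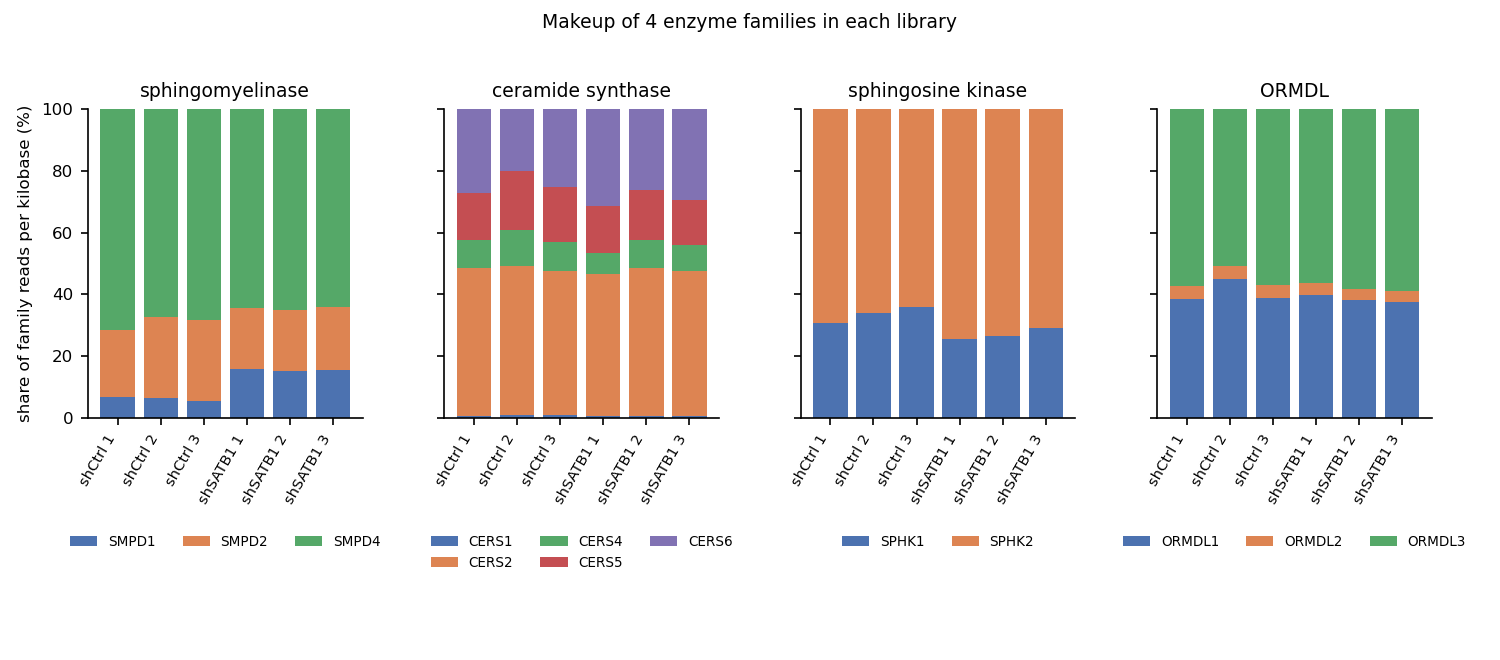
Stacked bars give, for each of the 6 libraries, the percentage of reads per kilobase of exon that each gene contributes to its enzyme family. The SMPD1 share is 5.42% to 6.74% in shCtrl and 15.1% to 15.8% in shSATB1, whereas the makeup of the ORMDL and ceramide synthase families moves by a few percentage points, with shCtrl 2 apart from the other shCtrl libraries in both.

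Of the 5 tested genes of glycosphingolipid synthesis, 0 passed by edgeR, DESeq2 or limma-voom, and 1 had an unadjusted p under 0.05 (edgeR). UGCG adds glucose to ceramide, the first step towards gangliosides, and stood at 23.1 ± 1.30 and 22.0 ± 2.93 CPM (adjusted p = 0.622). B4GALT5 and B4GALT6 add galactose to make lactosylceramide. B4GALT5 stood at 76.1 ± 2.93 and 79.7 ± 2.31 CPM, and B4GALT6 at 63.7 ± 2.40 and 72.2 ± 4.38 CPM without overlap between the groups (log2 fold change 0.18, SE 0.0666, adjusted p = 0.0518). B4GALT6 passed under 6 of 16 other settings (adjusted p 0.0244 to 1.00). ST3GAL5, which makes the ganglioside GM3, stood at 33.0 ± 1.57 and 33.7 ± 1.33 CPM. B4GALNT1, which leads to complex gangliosides, stood at 47.2 ± 6.96 and 43.3 ± 1.5 CPM (adjusted p = 0.333). It passed, lower, with the covariate (adjusted p = 0.00116) and without shCtrl replicate 2 (0.0171), out of a range of 0.00116 to 1.00, and shares 26.7% of its exon length with SLC26A10 on the opposite strand.

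Among the glycosphingolipid breakdown genes, GLA fell and HEXA rose, and 4 others did not pass. GLA encodes alpha-galactosidase A, which removes the end galactose of globotriaosylceramide and is deficient in Fabry disease. It stood at 33.0, 44.6 and 36.9 CPM in shCtrl 1, 2 and 3 and at 28.3, 27.6 and 27.1 CPM in shSATB1 1, 2 and 3. The groups did not overlap, and shCtrl 2 was the high library. The mean fell from 38.2 ± 5.91 to 27.6 ± 0.596 CPM, a log2 fold change of -0.47 (SE 0.0972, edgeR adjusted p = 0.00266), which is 72.4% of control (95% interval 62.7% to 83.7%). The call held with each library left out (adjusted p 2.44e-06 to 0.0240) and was lost with the covariate, where the log2 fold change was -0.085 (adjusted p = 0.727), and when tested against a 1.2-fold change (0.0741).

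HEXA, the alpha subunit of beta-hexosaminidase A that degrades the ganglioside GM2 and is deficient in Tay-Sachs disease, stood at 9.51, 8.44 and 10.1 CPM in shCtrl 1, 2 and 3 and at 12.9, 12.8 and 11.4 CPM in shSATB1 1, 2 and 3. The groups did not overlap. The log2 fold change was 0.40 (SE 0.104, edgeR adjusted p = 0.00988). It held with each library left out, and was lost with the covariate (adjusted p = 0.388), with the length correction (0.0707) and against a 1.2-fold change (0.197; 0.00589 to 0.388 over 16 other settings). HEXA overlaps 3 annotated genes, with shared stretches of 2.89% to 10.1% of its exon length. GLB1, a lysosomal beta-galactosidase gene, stood at 43.6 ± 2.41 and 48.2 ± 1.80 CPM without overlap (adjusted p = 0.127). GBA2, a glucosylceramidase outside the lysosome, stood at 77.9 ± 6.90 and 74.7 ± 3.40 CPM, ARSA, which removes the sulfate of sulfatide, at 41.0 ± 2.37 and 42.3 ± 3.71 CPM, and the sialidase gene NEU1 at 19.2 ± 1.11 and 17.5 ± 1.84 CPM. The lysosomal genes SMPD1 and HEXA were thus higher, GLA lower, and ASAH1, ARSA, GLB1 and NEU1 not past the test.

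Of the ceramidases, which release sphingosine from ceramide, ACER2 rose and 2 others did not pass. ACER2, an alkaline ceramidase of the Golgi, stood at 5.88, 3.93 and 4.84 CPM in shCtrl 1, 2 and 3 and at 6.84, 6.03 and 6.86 CPM in shSATB1 1, 2 and 3. The groups did not overlap, with shCtrl 1 just under shSATB1 2. The log2 fold change was 0.43 (SE 0.150, edgeR adjusted p = 0.0429). The estimate turned to -0.10 with the covariate (adjusted p = 0.835), and the call was lost without shCtrl replicate 2 (0.107) or 3 (0.109) and without shSATB1 replicate 1 (0.123), 2 (0.0614) or 3 (0.133), out of a range of 0.00259 to 0.835. ASAH1, the acid ceramidase of the lysosome, stood at 50.9 ± 4.29 and 51.0 ± 0.451 CPM, with an interval of the log2 fold change from -0.15 to 0.16. ACER3 stood at 32.8 ± 1.98 and 35.0 ± 2.60 CPM (adjusted p = 0.385).

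Of the genes that make, remove or export phosphorylated sphingolipids, SPHK2 and SGPL1 rose, SPNS2 fell, and 3 others did not pass. SPHK2, the sphingosine kinase found largely in the nucleus and at mitochondria, stood at 38.6, 36.1 and 37.9 CPM in shCtrl 1, 2 and 3 and at 42.3, 46.1 and 42.0 CPM in shSATB1 1, 2 and 3. The groups did not overlap (log2 fold change 0.21, SE 0.0695, edgeR adjusted p = 0.0327). On the opposite strand, AC022154.1 shares 11.3%, DBP 11% and RPL18 4.09% of the exon length of SPHK2. SPHK1, the cytosolic kinase, stood at 13.9 ± 1.51 and 11.9 ± 1.02 CPM (adjusted p = 0.120). The share of SPHK2 in the kinase reads per kilobase went from 66.5% ± 2.59 to 72.9% ± 1.74, without overlap (exact permutation p = 0.1). The SPHK2 call was lost under 7 of 16 other settings (adjusted p 0.0188 to 0.945), among them leaving out shCtrl replicate 3 or any of the shSATB1 libraries.

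SGPL1, the lyase that breaks sphingosine phosphate down for good, stood at 83.0, 73.5 and 82.1 CPM in shCtrl 1, 2 and 3 and at 92.1, 91.5 and 89.7 CPM in shSATB1 1, 2 and 3. The groups did not overlap (log2 fold change 0.20, SE 0.0647, edgeR adjusted p = 0.0331). The call was lost under 9 of 16 other settings (adjusted p 0.0133 to 1.00), among them leaving out any library except shCtrl replicate 1. SPNS2, a transporter that exports sphingosine phosphate from cells, stood at 14.2, 13.7 and 14.9 CPM in shCtrl 1, 2 and 3 and at 10.8, 11.5 and 11.5 CPM in shSATB1 1, 2 and 3. All shSATB1 libraries lay below all shCtrl libraries. The mean fell from 14.3 ± 0.604 to 11.3 ± 0.371 CPM (log2 fold change -0.34, SE 0.0896, edgeR adjusted p = 0.0110). Its estimate kept its size with the covariate (-0.39), where the call was lost (adjusted p = 0.111), as it was with shCtrl replicate 3 (0.0586) or shSATB1 replicate 1 (0.0646) left out and against a 1.2-fold change (0.339; 0.00536 to 0.339 over 16 other settings). SGPP1, a phosphatase of sphingosine phosphate, stood at 3.47 ± 0.672 and 3.84 ± 0.342 CPM (adjusted p = 0.560), and CERK, the most abundant member per length, at 175.2 ± 8.31 and 165.0 ± 2.23 CPM (adjusted p = 0.299).

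**Figure D5:**
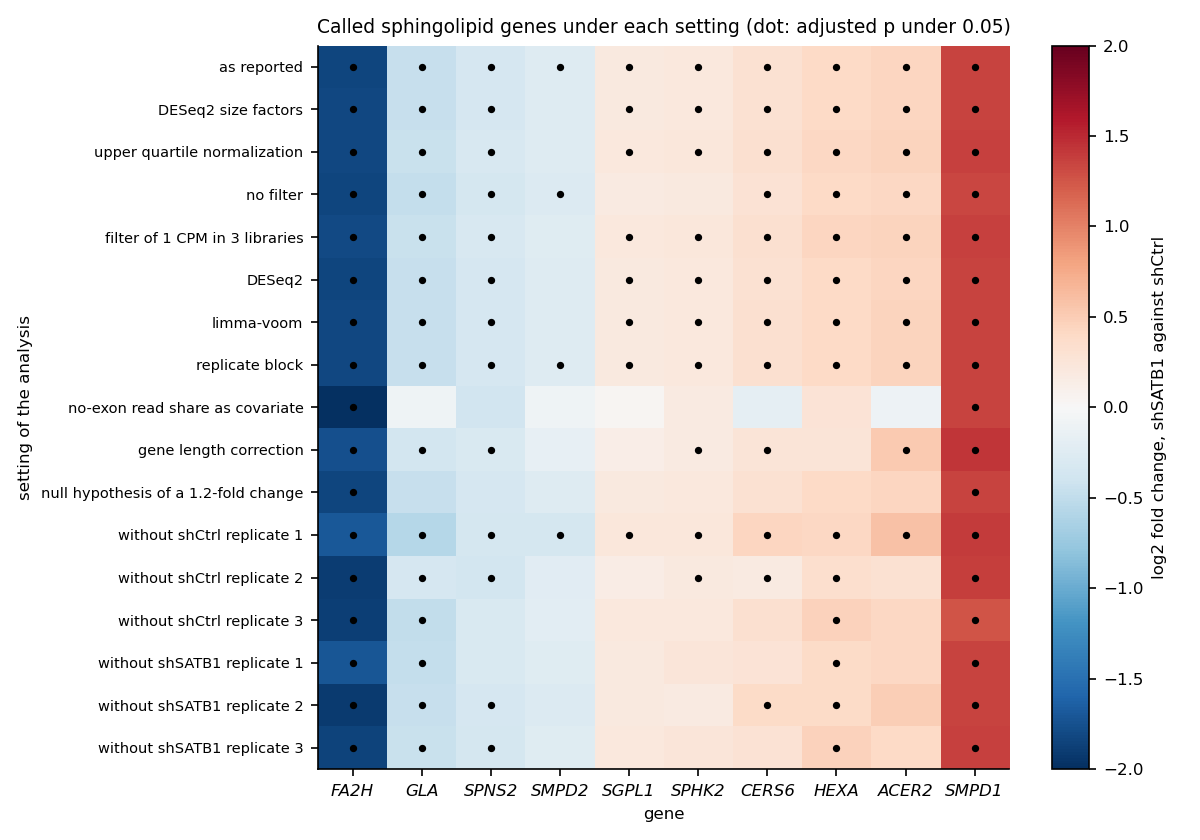
Colour gives the log2 fold change of the 10 called genes (columns) as reported and under 16 other settings (rows), and a dot marks an adjusted p under 0.05. FA2H and SMPD1 carry a dot in each row, GLA loses it in 2 rows and HEXA in 3, and SMPD2 keeps it in 3 of the 16 other settings.

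A wider list of 61 genes that act beside these enzymes (receptors, activator and transfer proteins, further hydrolases and glycosyltransferases, and the fatty acid elongation that supplies the ceramide synthases) held 47 tested genes. Of these, 10 rose and 16 fell (55.3%, against 30.9% of all genes tested), with a median log2 fold change of -0.096. The list was chosen with earlier results of these data known, and the difference between the shares was not tested. The groupings within this list were made after the values were seen. Among the sphingosine phosphate receptors, S1PR1 and S1PR3 rose and S1PR2 fell, while S1PR4 and S1PR5 did not pass. S1PR1, the lymphocyte egress receptor, rose by 1.45 on the log2 scale (SE 0.0619). S1PR3 went from 91.5 ± 7.82 to 109.0 ± 3.51 CPM and S1PR2, a receptor linked to retention in tissue, from 12.6 ± 2.22 to 9.22 ± 0.760 CPM (edgeR adjusted p = 0.0143 and 0.0159). With the covariate, S1PR2 stood at a log2 fold change of 0.00886 (adjusted p = 0.984; 0.000792 to 0.984 over 16 other settings) and S1PR3 lost the call. S1PR2 also lost it without shSATB1 replicate 1 (0.0865) or 3 (0.0568), and S1PR3 without shCtrl replicate 3 (0.0658) or shSATB1 replicate 2 (0.0504) or 3 (0.0634), within a range of 0.000549 to 0.741. With the length correction, S1PR3 stood at a log2 fold change of 0.087 against 0.25 as reported (adjusted p = 0.252).

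The activator proteins that present lipids to the lysosomal enzymes fell. PSAP, the precursor of the saposins, went from 874.8 ± 41.9 to 655.2 ± 28.4 CPM (log2 fold change -0.42, SE 0.0638, edgeR adjusted p = 0.000330), a call kept under each of 16 other settings. GM2A, the activator that works with HEXA, went from 107.7 ± 2.14 to 89.6 ± 3.16 CPM (adjusted p = 0.00426). HEXA thus rose while its activator GM2A fell.

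The proteins that carry ceramide and glycolipids between membranes moved in both directions. COL4A3BP (CERT), which brings ceramide to the Golgi for sphingomyelin synthesis, rose from 71.7 ± 3.16 to 92.2 ± 2.88 CPM, PLEKHA8 (FAPP2), which carries glucosylceramide, from 61.4 ± 3.73 to 79.9 ± 0.624 CPM, and CPTP, which carries ceramide phosphate, from 16.4 ± 1.86 to 20.2 ± 1.46 CPM. GLTP, a glycolipid carrier, fell from 50.7 ± 2.73 to 44.1 ± 1.28 CPM. Adjusted p by edgeR was 0.000733, 0.000677, 0.0330 and 0.0352 in this order. COL4A3BP, PLEKHA8 and GLTP lost the call with the covariate. With the length correction, COL4A3BP stood at a log2 fold change of 0.15 against 0.36 as reported (adjusted p = 0.0739; 9.55e-06 to 0.14 over 16 other settings), and GLTP lost its call too (0.142). GLTP also lost it with any library left out except shCtrl replicate 1 (adjusted p 0.0642 to 0.166 for those 5), and CPTP without shCtrl replicate 1 (0.105) or 3 (0.0588) or shSATB1 replicate 2 (0.115) or 3 (0.108). SAMD8, which makes ceramide phosphoethanolamine, rose from 44.0 ± 1.62 to 55.2 ± 1.93 CPM, and SMPD3, another neutral sphingomyelinase gene, from 4.03 ± 0.352 to 5.34 ± 0.359 CPM (adjusted p = 0.00209 and 0.0369). With the covariate, SAMD8 stood at 0.22 on the log2 scale and lost the call (adjusted p = 0.190; 0.000314 to 0.302 over 16 other settings). The SMPD3 call was lost under 10 of 16 other settings, DESeq2 (adjusted p = 0.0633) and leaving out any library except shCtrl replicate 1 among them (range 0.0283 to 0.523).

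Of 12 tested genes of fatty acid elongation, 5 passed (41.7%, against 30.9% of all genes tested), each of them lower in shSATB1, as were 16.6% of all genes tested. ELOVL5, a polyunsaturated fatty acid elongase gene, fell from 953.5 ± 23.3 to 752.3 ± 12.7 CPM, ELOVL6, which extends palmitate, from 21.0 ± 0.918 to 16.2 ± 0.380 CPM, and TECR, the reductase of the cycle, from 123.3 ± 15.2 to 98.2 ± 6.02 CPM. The dehydratase gene HACD3 fell from 178.4 ± 2.96 to 134.7 ± 2.31 CPM and its relative HACD1 from 37.1 ± 5.33 to 26.6 ± 2.76 CPM. Adjusted p by edgeR lay between 0.000179 (HACD3) and 0.00887 (TECR). ELOVL1 (53.9 ± 2.37 and 49.6 ± 4.14 CPM) and ELOVL4 (61.8 ± 5.26 and 61.8 ± 2.28 CPM), elongases of the very long chains found in ceramide, missed the threshold (adjusted p = 0.248 and 0.987). HACD3 kept its call under each of 16 other settings, whereas HACD1 and TECR lost theirs with the covariate, where TECR stood at a log2 fold change of 0.0184. TECR also lost it without shSATB1 replicate 3 (adjusted p = 0.0708; 2.74e-05 to 0.931 over 16 other settings).

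Cytochrome b5 reductase, CYB5R3, which passes electrons to cytochrome b5 for desaturation, fell from 132.7 ± 3.76 to 100.5 ± 7.75 CPM, and CYB5A, microsomal cytochrome b5, from 18.0 ± 1.86 to 13.9 ± 0.389 CPM (edgeR adjusted p = 0.000638 and 0.00840). ALDH3A2, the fatty aldehyde dehydrogenase that acts on the product of SGPL1, fell from 32.7 ± 2.01 to 25.0 ± 0.121 CPM (adjusted p = 0.00160). ALDH3A2 and CYB5A lost the call with the covariate. Of the sialyltransferases listed, ST3GAL1 rose by 1.00 on the log2 scale (SE 0.0736), from 55.5 ± 5.61 to 111.1 ± 1.58 CPM, and kept its call under each of 16 other settings. ST8SIA5 rose from 0.679 ± 0.179 to 1.43 ± 0.319 CPM (adjusted p = 0.0146), a low level, and lost the call with the covariate (0.837) and without shSATB1 replicate 1 (0.0862; 0.00392 to 0.837 over 16 other settings). ST8SIA1 and ST3GAL2 did not pass. The other calls were NEU3, ARV1, HACL1 and ACOT7 among the falls and SUMF1, which activates ARSA and other sulfatases, among the rises. These 5 calls were lost under 3 (ACOT7) to 6 (HACL1) of 16 other settings. ARV1, HACL1, ACOT7 and SUMF1 lost theirs with the covariate. Leaving out shSATB1 replicate 3 ended the calls of NEU3 (adjusted p = 0.105), ARV1 (0.129), HACL1 (0.0733) and ACOT7 (0.0504). Without shCtrl replicate 3, NEU3 (0.0609), ARV1 (0.0581) and SUMF1 (0.0931) no longer passed. The same held for NEU3 (0.0535), HACL1 (0.0873) and SUMF1 (0.0659) without shSATB1 replicate 1, for NEU3 (0.0906) and HACL1 (0.0595) without shSATB1 replicate 2, and for HACL1 (0.0697) without shCtrl replicate 2.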

How the data were processed

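Total RNA of Jurkat cells was sequenced in 6 libraries, 3 shCtrl and 3 shSATB1, grouped by sample title. The authors deposited raw read counts per Ensembl gene in 1 table for each library, without normalization or pooling. Per the submitters' processing notes, Trim Galore, STAR and HTSeq were used with hg38. Their versions, the annotation release and the strand setting are not stated in these sources. Symbols, coordinates and exon lengths came from GENCODE 29, in which all 58735 identifiers were found. The 5 lines per table that name no gene were kept apart from the counts tested. Their reads outside annotated exons were 7.77% to 11.7%, ambiguous reads 8.99% to 10.1% and reads without a unique alignment 4.22% to 4.53%. Ambiguous reads made up 9.84% ± 0.301 in shCtrl and 9.11% ± 0.180 in shSATB1, without overlap between the groups. This share, too, cannot be told apart from the group.

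Counts were tested with edgeR 4.0.16 in R 4.3.3 (TMM, filterByExpr with a minimum count of 10, quasi-likelihood F test, no covariate) over 17520 genes with Benjamini-Hochberg adjustment at 0.05. A gene past it is called. Family shares are reads per kilobase of summed exon length, compared by a two-sided exact permutation test (scipy 1.17.1). Over 25 shares in 10 families, none can pass adjustment, since 0.1 is the smallest p.

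The 16 other settings covered normalization (DESeq2 size factors, upper quartile), the filter (none, or 1 CPM in 3 libraries), the tool (DESeq2 1.42.0 or limma-voom from limma 3.58.1), a replicate block, each library's share of reads outside annotated exons as a covariate ("the covariate"), a per-library trend over exon length as an offset ("the length correction"), a test against a 1.2-fold change, and leaving out each library. The members, lists and settings were chosen with earlier results of these data known. Members were all accounted for, and of the wider list the 10 called genes with the largest change were to be named; the further genes named there were chosen after their values were seen. Scripts were tested on simulated counts. Within-group chi-square per degree of freedom lay between 2.80 and 20.5, so no library was a copy of another. Promoter windows came from RefSeq.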

Additional observations from a re-analysis of the deposited data

How the results depend on the processing

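Of the 10 called members, FA2H and SMPD1 kept their calls under the 16 other settings, and 8 lost theirs under at least 2 of them. Members called higher numbered 2 with the covariate and 1 against a 1.2-fold change (6 as reported), members called lower 2 and 1 (4 as reported). Leaving out a library gave 2 to 7 higher and 2 to 8 lower members: higher 2 without shCtrl replicate 3 or without shSATB1 replicate 1 or 3, lower 2 without shCtrl replicate 3 or shSATB1 replicate 1 and 8 without shCtrl replicate 1. In the wider list, 3 rose and 7 fell with the covariate and 2 and 2 against a 1.2-fold change, with 6 to 9 rising and 9 to 19 falling with a library left out (6 without shCtrl replicate 3 and 9 without shSATB1 replicate 3). Over all genes tested, 858 rose and 1262 fell with the covariate, 758 and 698 against a 1.2-fold change, and 1650 to 3218 rose and 1817 to 3562 fell with a library left out. These were 1662 rising without shCtrl replicate 3, 1650 rising and 1852 falling without shSATB1 replicate 3, and 1817 falling without shSATB1 replicate 1. With the covariate, the sign of the estimate turned for CERS6 (-0.18), ACER2 (-0.10), S1PR2 (0.00886) and TECR (0.0184). None of these turned estimates passed the threshold, so no change of direction was shown. Leaving out a library means fewer samples, yet 14 members passed without shCtrl replicate 1 and 4 without shCtrl replicate 3. The cause of the lost calls was not tested. SATB1 kept its call, at log2 fold changes from -1.40 to -1.35 with a library left out.

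The labels do not say whether the replicate numbers pair the libraries. Deviations of same-numbered libraries correlated at 0.0798, 0.0712 and 0.00320 for replicates 1, 2 and 3. Those of replicates 1 and 2 were the highest of all pairs, whereas shCtrl replicate 3 correlated more with shSATB1 replicate 1 (0.0157). With 3 libraries per group, these low values cannot decide whether the libraries are paired. With a replicate block, 8 members rose and 5 fell, 10 and 18 of the wider list, and 2783 and 3120 of all genes, and SATB1 stood at -1.38. Of 175 alternative values of family shares, 2 moved by more than 1 SD. Genes with few reads (SGMS2, SPTLC3, CERS1, DEGS2) are limited by counting error.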

Other observations

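The genes beside the 2 most changed members were read as values, chosen after the results were seen. Their calls were not followed under the other settings, and some lay close to the threshold. On chromosome 16, the nearest tested neighbours of FA2H also include falling genes: 3 of 6 fell and 2 rose, against 16.6% and 14.3% of all genes tested. MLKL, the effector of necroptosis, lies 12 kb beyond the end of FA2H on the same strand and went from 31.4 ± 1.25 to 20.5 ± 0.468 CPM (SD, n = 3; log2 fold change -0.62, SE 0.0741, edgeR adjusted p = 5.42e-05). RFWD3 went from 217.1 ± 5.52 to 193.9 ± 5.39 CPM and WDR59 from 113.4 ± 2.82 to 99.7 ± 1.37 CPM (adjusted p = 0.0482 and 0.0263). GLG1, 105.8 kb away, moved the other way, from 214.4 ± 12.5 to 342.4 ± 2.62 CPM (log2 fold change 0.68, adjusted p = 6.11e-06), and ZNRF1 rose from 103.5 ± 2.62 to 115.7 ± 2.07 CPM (adjusted p = 0.0494). LDHD did not pass (adjusted p = 0.749).

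On chromosome 11, 3 of the 6 nearest tested neighbours of SMPD1 rose, while 14.3% of all genes tested rose. APBB1, which binds the amyloid precursor protein, went from 8.98 ± 0.325 to 14.1 ± 0.788 CPM (log2 fold change 0.65, SE 0.0950, edgeR adjusted p = 0.000235), HPX, the hemopexin gene, from 1.19 ± 0.161 to 2.38 ± 0.154 CPM (adjusted p = 0.00260), and FAM160A2 from 36.9 ± 1.1 to 44.0 ± 2.56 CPM (adjusted p = 0.0132). TRIM3, CCKBR and CNGA4 did not pass.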
